A study of Mus musculus with 6 samples.

Results

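The promoters described here belong to autosomal protein-coding genes with no accessible interval near them in a filtered peak list of mouse kidney. Members were chosen on the measured peak calls: a gene was a member when no distinct interval of the pooled ATAC-seq peak list lay within 1 kb of any transcription start site (TSS) of its transcripts in GENCODE M39. Of 20621 autosomal protein-coding genes, 4232 met this rule, a background share of 20.5%, and 16389 had an interval within 1 kb of a TSS. The members held 9486 distinct TSS ± 1 kb windows of 163484 in all. Because the peak calls chose the members, the lack of an interval is not a finding, and the values below are descriptions with no test.

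ATAC-seq uses the Tn5 transposase to cut open chromatin, and a peak caller then marks intervals where cuts pile up above the local background. Promoters of widely used genes usually lie in CpG islands, stretches where the CpG dinucleotide escaped the loss that DNA methylation brings over evolution, and such promoters tend to be open in most tissues. Promoters poor in CpG are commonly open only in the cells that use the gene. Large families of receptors for smell and pheromones, of skin and hair proteins, and of reproductive secretions lie in tandem arrays of related genes, where promoter sequences can resemble each other closely.

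Nuclei came from the kidney cortex of WT mice, which were Acly fl/fl littermates lacking Cre, and of Acly cKO mice, which were Acly fl/fl;Ksp-Cre mice. ACLY is the enzyme that makes cytosolic acetyl-CoA from citrate, and the Ksp (Cdh16) promoter drives Cre broadly in the renal tubular epithelium, so cells outside the tubule keep the gene. There were 3 WT and 3 Acly cKO libraries, all with the treatment given as Control, and the age of the mice was not given with the libraries. The WT libraries came from batches 1 and 2 and the Acly cKO libraries from batches 4 and 5, which leaves genotype and batch confounded (they cannot be told apart), and the study counts further WT libraries that have no sample here. The peak list is a single pooled call, by its peak names over all libraries, and the files do not show whether the further WT libraries entered it. It held 279569 distinct intervals. No value belongs to a single library, so depth per library is unknown, no replicate error could be given and the genotypes were not compared. An absent interval says that none passed both the caller's threshold in bulk nuclei and the later filtering of the list. Fewer cells with an open promoter cannot be told apart from less signal per cell.

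The sequences below show members that were typical of large families in CpG ratio, the only value they were picked on. The first 5 are promoters of the member with the median CpG ratio in each of the 5 named families that contributed most members: Or2y17 (chr11:49225765-49226064 on the + strand), an olfactory receptor, Vmn1r15 (chr6:57234687-57234986 on the + strand) and Vmn2r102 (chr17:19880340-19880639 on the + strand), vomeronasal receptors for pheromones, Krtap27-1 (chr16:88468510-88468809 on the - strand), a keratin-associated protein of hair, and Pramel32 (chr4:88552447-88552746 on the - strand), of a family expressed in germ cells and the early embryo. Coordinates are on GRCm39, each stretch runs 5′ to 3′ along the gene from 250 bases before to 49 bases after the canonical TSS, and capitals mark CpG dinucleotides.
Or2y17: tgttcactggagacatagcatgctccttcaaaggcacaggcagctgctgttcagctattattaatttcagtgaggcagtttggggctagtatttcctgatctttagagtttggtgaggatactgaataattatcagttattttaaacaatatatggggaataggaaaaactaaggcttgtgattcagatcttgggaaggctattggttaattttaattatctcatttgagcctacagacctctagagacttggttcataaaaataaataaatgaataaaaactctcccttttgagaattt
Vmn1r15: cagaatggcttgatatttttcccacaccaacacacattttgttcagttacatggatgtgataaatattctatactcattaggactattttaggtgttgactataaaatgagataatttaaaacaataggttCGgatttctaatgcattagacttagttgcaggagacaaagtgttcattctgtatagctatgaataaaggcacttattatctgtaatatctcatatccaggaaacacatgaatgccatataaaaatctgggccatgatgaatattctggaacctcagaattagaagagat
Vmn2r102: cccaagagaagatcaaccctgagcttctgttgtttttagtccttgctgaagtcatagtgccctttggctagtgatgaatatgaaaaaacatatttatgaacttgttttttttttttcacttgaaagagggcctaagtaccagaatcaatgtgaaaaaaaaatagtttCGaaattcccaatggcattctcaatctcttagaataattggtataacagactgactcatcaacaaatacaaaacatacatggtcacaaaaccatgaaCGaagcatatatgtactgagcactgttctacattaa
Krtap27-1: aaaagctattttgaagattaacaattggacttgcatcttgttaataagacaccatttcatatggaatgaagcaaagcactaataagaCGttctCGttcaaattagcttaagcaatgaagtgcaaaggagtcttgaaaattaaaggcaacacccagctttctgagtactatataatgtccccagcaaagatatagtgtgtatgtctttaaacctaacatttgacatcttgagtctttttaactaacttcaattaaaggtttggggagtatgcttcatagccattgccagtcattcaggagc
Pramel32: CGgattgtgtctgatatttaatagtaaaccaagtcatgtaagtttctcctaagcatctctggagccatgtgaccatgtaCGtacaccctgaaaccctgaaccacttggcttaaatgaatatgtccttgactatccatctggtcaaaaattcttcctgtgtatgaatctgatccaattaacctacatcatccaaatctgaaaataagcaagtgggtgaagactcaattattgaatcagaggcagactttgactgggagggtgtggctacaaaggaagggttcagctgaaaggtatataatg

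Each of these 5 promoters held between 0 and 2 CpG in 300 bases. GC content ranged from 32.7% in Vmn1r15 to 40.3% in Pramel32. Their nearest intervals lay 1906 bp away for Or2y17, 13737 bp for Vmn1r15, 22599 bp for Vmn2r102, 13662 bp for Krtap27-1 and 6080 bp for Pramel32. Distances here and below run from the nearest TSS of a gene, which need not be the canonical one. The median distances among members of the 5 families were 21011, 33907, 41720.5, 12021.5 and 131458 bp in the same order. Of 50-base words in the 2-kb windows of these 5 promoters, 11.2%, 7.14%, 3.57%, 1.02% and 0.51% occurred elsewhere in the genome. The family medians of that share were 1.53%, 17.3%, 12.2%, 14.0% and 59.7%.

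The next sequences show the exceptions, members whose promoters were rich in CpG. Meioc (chr11:102556111-102556410 on the + strand), a gene needed to enter and sustain meiosis, had the highest CpG ratio of all members, and H2bc23 (chr13:21994318-21994617 on the - strand), a replication-dependent histone H2B gene, came next. H2bc24, the third in order, is not printed because its window was identical to that of H2bc23 over 298 of 298 bases at a shift of 2 bases. Ddx4 (chr13:112788960-112789259 on the - strand), a germ-cell RNA helicase, and Myod1 (chr7:46025620-46025919 on the + strand), the master regulator of skeletal muscle, were added after their values were seen, as examples of a germ-line gene and an embryonic regulator.
Meioc: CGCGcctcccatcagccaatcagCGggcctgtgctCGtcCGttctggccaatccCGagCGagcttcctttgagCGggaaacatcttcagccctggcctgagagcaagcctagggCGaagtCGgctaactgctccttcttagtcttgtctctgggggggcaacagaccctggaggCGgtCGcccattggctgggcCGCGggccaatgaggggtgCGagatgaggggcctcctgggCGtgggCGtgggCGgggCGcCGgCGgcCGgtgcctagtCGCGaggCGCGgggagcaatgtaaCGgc
H2bc23: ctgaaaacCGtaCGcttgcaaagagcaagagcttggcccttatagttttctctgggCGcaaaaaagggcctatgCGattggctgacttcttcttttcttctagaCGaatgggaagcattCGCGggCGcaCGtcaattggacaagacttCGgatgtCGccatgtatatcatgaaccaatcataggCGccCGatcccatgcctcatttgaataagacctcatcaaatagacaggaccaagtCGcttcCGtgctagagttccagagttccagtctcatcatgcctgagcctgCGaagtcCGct
Ddx4: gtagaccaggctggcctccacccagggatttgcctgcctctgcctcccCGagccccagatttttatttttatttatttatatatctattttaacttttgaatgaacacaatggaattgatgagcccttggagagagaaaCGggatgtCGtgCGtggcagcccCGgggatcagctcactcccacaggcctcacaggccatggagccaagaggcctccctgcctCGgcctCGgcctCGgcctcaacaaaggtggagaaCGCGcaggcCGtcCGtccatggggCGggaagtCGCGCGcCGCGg
Myod1: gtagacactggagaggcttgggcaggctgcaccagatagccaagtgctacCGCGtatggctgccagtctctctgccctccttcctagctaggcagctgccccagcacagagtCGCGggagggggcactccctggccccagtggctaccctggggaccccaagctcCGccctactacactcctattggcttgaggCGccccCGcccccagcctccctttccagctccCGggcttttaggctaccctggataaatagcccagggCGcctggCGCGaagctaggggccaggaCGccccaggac

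These windows held 27 CpG in Meioc, 17 in H2bc23, 18 in Ddx4 and 12 in Myod1. GC content was 67.7%, 49.7%, 58.0% and 66.0% in the same order. Counted from the nearest TSS of each gene, the nearest interval lay 11948 bp from Meioc, 1822 bp from H2bc23, 7287 bp from Ddx4 and 1567 bp from Myod1. For Meioc that TSS was not the canonical one of the printed stretch, which lay farther from the interval.

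CpG content separated most members from the genes with an interval. The CpG observed/expected ratio compares the CpG count with the count expected from the C and G content. In the 2-kb window around the canonical TSS its median was 0.14 in members and 0.58 in the other genes, beside 0.50 over all genes. The middle of the member distribution was narrow, from 0.098 at the lower quartile to 0.21 at the upper, against 0.39 to 0.70 in the other genes. Median GC content was 41.4% in members and 53.4% in the other genes, and the median CpG count per window was 11 against 80.

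**Figure D1:**
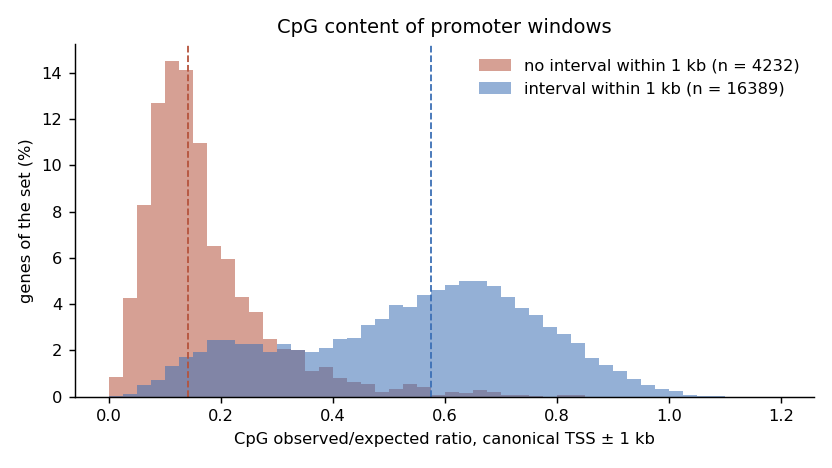
Distribution of the CpG observed/expected ratio (x axis, no unit) in the 2-kb window around the canonical TSS, as percent of genes in each set (y axis), with dashed lines at the medians of 0.14 for 4232 genes without an interval and 0.58 for 16389 genes with an interval. The genes without an interval pile up below 0.3, and the genes with an interval spread from about 0.2 to 1.0.

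Windows were also placed in 3 classes: CpG-rich where some 500-base stretch had a ratio above 0.75 and GC above 55%, CpG-poor where no stretch exceeded 0.48, and intermediate otherwise. Of the members 3535 (83.5%) were CpG-poor, 580 (13.7%) intermediate and 117 (2.76%) CpG-rich, while 64.8% of the genes with an interval were CpG-rich and 15.8% CpG-poor. Read the other way, 57.7% of all 6125 CpG-poor genes lacked an interval, against 15.4% of 3759 intermediate and 1.09% of 10737 CpG-rich genes. The share fell steadily along the ratio, from 82.8% of 1332 genes with a ratio under 0.1 and 61.5% of 3170 genes from 0.1 to 0.2 to 1.26% of 8497 genes from 0.5 to 0.8. Low CpG alone did not place a gene among the members, since 2590 CpG-poor genes had an interval.

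Repeated promoter sequence moved with membership as well. The authors kept only uniquely mapped reads, and 50-base words starting every 10 bases in the 2-kb window were looked up in the whole genome for further copies. A window was called repeated when more than 5% of its words occurred elsewhere. Repeated windows made up 44.4% of members (1880 genes) and 11.6% of genes with an interval (1896 genes). In 192 members every word was repeated, against 2 of the genes with an interval. The share of genes without an interval was 11.1% of 11733 genes with no repeated word, 36.7% of 2531 genes with over 5% and up to 25% repeated words, and 90.6% of 552 genes with over 75%. How far the removal of reads that map to several places set these calls was not tested.

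The other 2352 members had single-copy windows, and of them 1927 were CpG-poor, 377 intermediate and 48 CpG-rich, with a median ratio of 0.15. Among genes with single-copy windows, 48.1% of 4007 CpG-poor, 11.96% of 3153 intermediate and 0.496% of 9685 CpG-rich genes lacked an interval. The same order stood among repeated windows, at 75.9%, 33.5% and 6.56%.

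**Figure D2:**
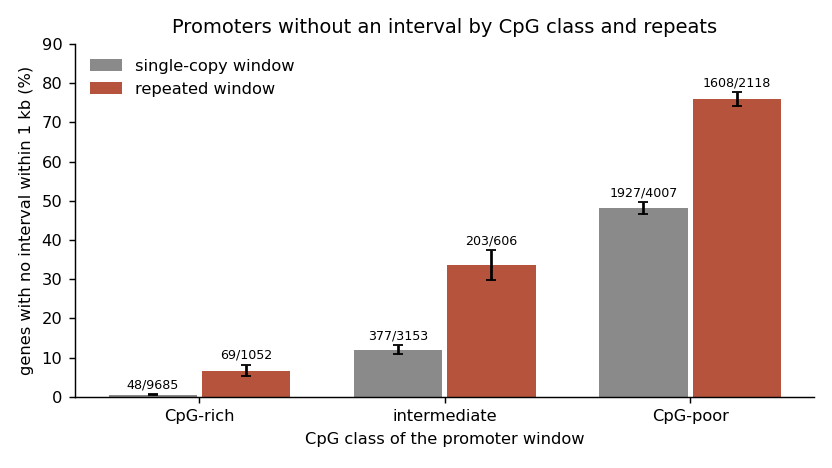
Percent of genes with no interval within 1 kb of any TSS (y axis) by CpG class of the promoter window (x axis), in gray for single-copy windows and in red for repeated windows, with Wilson 95% intervals that cover counting error only and counts above the bars. In each CpG class the bar for repeated windows stands above that for single-copy windows, and CpG-poor windows reach 48.1% and 75.9%.

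Members also differed from the other genes in their annotation. Their canonical transcripts had a median of 3 exons, against 8, and 651 members (15.4%) had a single exon. The median gene length was 6982.5 bp against 24695 bp. The median number of distinct TSSs was 2 in members and 7 in the other genes, and the rule itself favours genes with few TSSs, since each further TSS is another place for an interval to lie. With the canonical TSS as the sole anchor the count was 4655.

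Short motifs in the 300 bases around the canonical TSS were counted on both strands over all genes. TATAAA, the core of the TATA box, occurred in 29.5% of members, 9.09% of genes with an interval and 13.3% of all genes. Within 40 to 20 bases before the TSS on the sense strand, where a TATA box usually lies, it occurred in 5.91% of members and 0.976% of the other genes. Olfactory receptor members held it in 32.8% anywhere in the 300 bases, but in 2.52% at that position. TATAAA is made of A and T alone, and the windows of members had the lower GC content. GGGCGG, the SP1 core, occurred in 5.98% of members and 52.7% of the other genes. CCGGAAG, an ETS core, occurred in 1.87% and 12.6%, and GCATGCGC, an NRF1 core, in 0.709% and 4.08%. These 3 motifs contain CpG. Within CpG-poor genes alone, GGGCGG still stood at 3.73% of members and 16.3% of genes with an interval, CCGGAAG at 0.962% and 2.66%, and GCATGCGC at 0.198% and 0.232%.

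Motifs without CpG other than TATAAA were counted as well. CCAAT, the NF-Y core, occurred in 43.4% of members and 38.5% of the other genes, and AAGATGG, the YY1 core, in 5.91% and 5.72%. GTTAAT, part of the HNF1 motif, occurred in 12.2% of members and 5.50% of the other genes, with 20.5% in the olfactory receptor members, and this motif is rich in A and T, as the members' windows are. Within CpG-poor genes alone, TATAAA stood at 31.0% of members and 14.9% of genes with an interval, and GTTAAT at 12.7% and 10.15%. A match is only a string of letters in the window and says nothing of binding.

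By name prefix, 63 families were counted, and together they held 2452 members (57.9%). A further 381 members (9.003%) carried only placeholder symbols (Gm or Rik), and 1399 had other symbols. Families with a share near 20.5% lie at the background. Chemosensory receptors formed the largest block: the olfactory, both vomeronasal, trace amine-associated and bitter taste receptor families gave 1497 members, 35.4% of all.

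**Figure D3:**
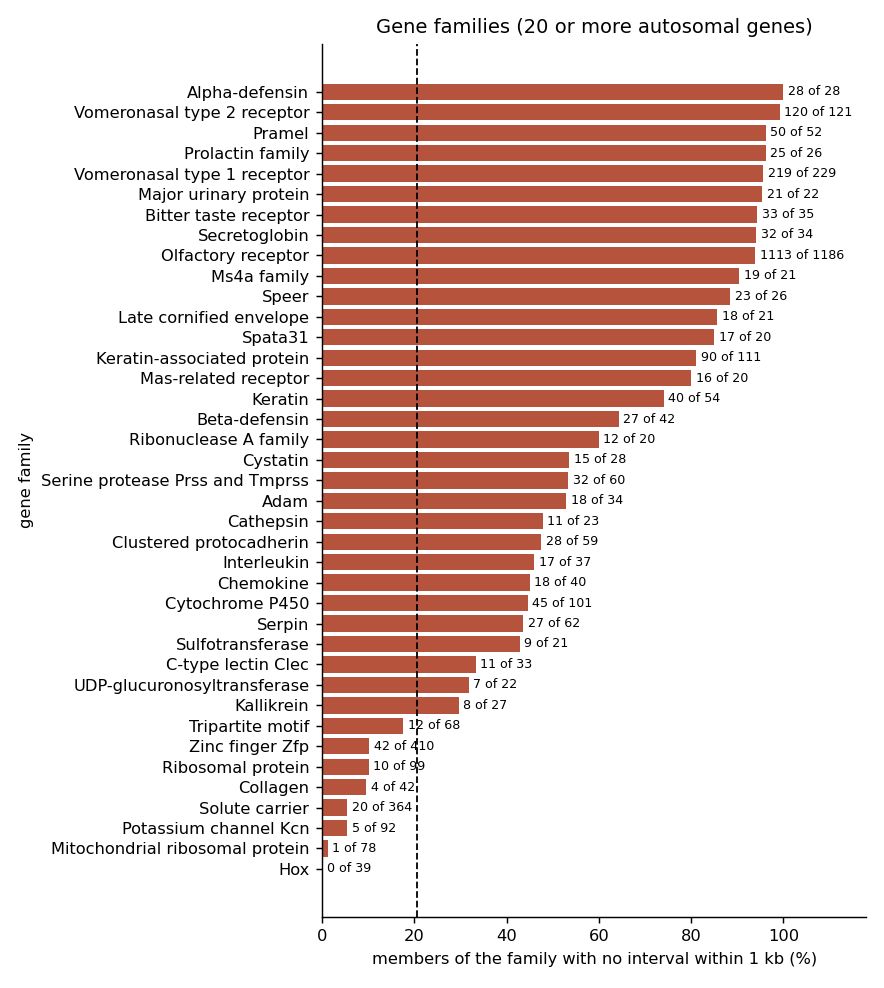
Percent of the genes of each family with no interval within 1 kb (x axis) for named families with 20 or more autosomal genes (y axis), with member counts beside the bars and a dashed line at 20.5%, the share over all genes. Alpha-defensins, vomeronasal receptors, Pramel and prolactin-family genes stand above 95%, olfactory receptors at 93.8%, beta-defensins at 64.3% and Hox genes at 0.

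Olfactory receptors (Or), which detect odorants in neurons of the nose, gave 1113 members of 1186 genes (93.8%), or 26.3% of all members. None of their windows was CpG-rich and 1064 were CpG-poor, with a median ratio of 0.11 and a highest value of 0.42 in Or6d12. The median distance to an interval was 21011 bp and the farthest was Or5b122 at 395861 bp. Class I receptors (Or51 to Or56), which lie on a single chromosome, and class II receptors had 119 of 137 and 994 of 1049 genes among the members, with median ratios of 0.11 in both classes. Or51e2, a receptor known from renal blood vessels and named here after its value was seen, was a member with its nearest interval at 12053 bp.

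The 73 olfactory receptors that had an interval mostly had a weak one. For 56 of them the interval's fold enrichment over background was under 3, and for 4 it was at least 10. The strongest were Or2bd2 at 19.1-fold and Or5m3b at 17.5-fold. An interval within 1 kb can belong to another gene, and in 15 of the 73 it overlapped a TSS of the receptor itself.

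Vomeronasal receptors, which detect pheromones, were members nearly without exception: 219 of 229 Vmn1r and 120 of 121 Vmn2r genes. Their windows were repeated more often than those of olfactory receptors, in 70.3% of Vmn1r and 67.5% of Vmn2r members against 33.1%. Of the Vmn1r members 43.8% had no interval within 50 kb, and of the Vmn2r members 42.5%. Vmn1r129 was the farthest at 1369694 bp and Vmn1r65 had the highest CpG ratio among Vmn1r members. Among Vmn2r members Vmn2r39 was the farthest at 937460 bp and Vmn2r60 had the highest ratio. Vmn1r4 stood apart from its family with an interval of 66.4-fold within 1 kb.

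Smaller receptor families were also mostly members. Bitter taste receptors (Tas2r) gave 33 of 35 genes, all with a single exon, and 2 of the 33 had repeated windows. Trace amine-associated receptors (Taar) gave 12 of 15, Mas-related receptors (Mrgpr) of sensory neurons 16 of 20, and formyl peptide receptors (Fpr), which guide phagocytes and serve the vomeronasal organ, 7 of 7. The farthest Tas2r member was Tas2r131 at 68304 bp, and Tas2r108 had the highest CpG ratio.

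Families of the skin and hair followed. Keratin-associated proteins gave 90 of 111 genes, each with a single exon, of which 67 had repeated windows. Krtap9-22 was the farthest at 83549 bp and Krtap20-22 had the highest CpG ratio. Keratins gave 40 of 54, with Krt25 the farthest at 62812 bp and Krt28 the highest in CpG ratio, and the epithelial keratin Krt8 was outside the set with an interval of 26.1-fold. Late cornified envelope genes gave 18 of 21, small proline-rich proteins 13 of 17, and Skint genes, which shape skin T cells, 11 of 11.

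Defence genes split by family. Alpha-defensins, antimicrobial peptides of Paneth cells, gave 28 of 28, all with repeated windows and a median distance of 142412 bp. Defa2 was the farthest at 328143 bp and Defa3 the highest in CpG ratio. The 39 consecutive members from Defb3 to Defa24 on chromosome 8 spanned 2.88 Mb, of which 27.4% was unknown bases in the assembly. No interval can be called in unknown bases, and their part in these distances was not tested. Beta-defensins gave 27 of 42, with Defb38 the farthest at 70768 bp and Defb21 the highest in CpG ratio, and Defb1, the beta-defensin of kidney epithelium, had an interval of 22.3-fold. Type I interferons gave 13 of 18, interleukins 17 of 37, chemokines 18 of 40, Ms4a genes 19 of 21, Cd300 genes 9 of 12 and C-type lectins (Clec) 11 of 33. The NK receptor genes gave 10 of 11 for Klra and 12 of 16 for other Klr, and mast cell proteases and granzymes 14 of 15.

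Of the 37 interleukins 20 had an interval, for 7 of them of at least 10-fold, led by Il17d at 22.7-fold. Among the 17 members some widely known T-cell cytokines are named here, picked after their values were seen. Il2, the T-cell growth factor, had its nearest interval at 2208 bp. Il4 had its nearest at 9227 bp, Il13 at 1518 bp and Il5 at 13119 bp, which are neighbours of the type 2 cytokine locus. Il10, an anti-inflammatory cytokine, lay just past the limit at 1112 bp. Il17a lay 5265 bp and Il17f 1236 bp from an interval. None of these windows was CpG-rich.

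Families of reproduction and secretion had high shares. Prolactin-family genes of the placenta gave 25 of 26, with Prl8a2 the farthest at 299140 bp and Prl5a1 the highest in CpG ratio. Pregnancy-specific glycoproteins gave 10 of 13, Ceacam genes 9 of 16, caseins 4 of 5, and secretoglobins 32 of 34, with Scgb1b29 at 948565 bp and Scgb1b30 the highest in CpG ratio. Major urinary proteins, pheromone carriers made by the liver, gave 21 of 22, each with a repeated window, with Mup22 the farthest at 354735 bp and Mup11 the highest in CpG ratio.

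Genes of the germ line and early embryo included Pramel with 50 of 52, with Pramel45 the farthest at 704186 bp and Pramel1 the highest in CpG ratio. Obox gave 7 of 7, Zscan4 8 of 8, Tdpoz 9 of 9, Usp17-like 5 of 5, Nlrp 14 of 17, Spata31 17 of 20, Adam 18 of 34 and Speer 23 of 26. All 8 Zscan4, 9 Tdpoz and 23 Speer members had repeated windows. Speer1h was the farthest Speer member at 368508 bp and Speer4a1 the highest in CpG ratio.

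Proteases and their inhibitors were mixed. Serine proteases (Prss and Tmprss) gave 32 of 60, with Prss3l the farthest at 72005 bp and Tmprss12 the highest in CpG ratio, cathepsins 11 of 23, kallikreins 8 of 27, ribonuclease A genes 12 of 20, cystatins 15 of 28, serpins 27 of 62, Spink 4 of 13 and Wfdc genes 8 of 18. Serpinb9f was the farthest serpin at 130115 bp and Serpina12 had the highest CpG ratio. The 12 cathepsins outside the set had a median fold of 27.2, led by Ctsl, a lysosomal protease of most cells.

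Families of metabolism and transport had shares from 5.49% to 44.6%. Cytochrome P450 genes gave 45 of 101, with Cyp2c54 the farthest at 122609 bp and Cyp2c23 the highest in CpG ratio, UDP-glucuronosyltransferases 7 of 22, sulfotransferases 9 of 21 and carboxylesterases 8 of 19. Solute carriers gave 20 of 364 (5.49%), with Slc6a11 the farthest at 41326 bp and Slc18a3 the highest in CpG ratio, and organic anion transporters (Slco) 4 of 16. Several solute-carrier members had many repeated words: Slc22a27, Slc22a28 and Slc22a30, of the organic anion transporter group, had 44.4%, 49.5% and 48.98% repeated words.

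Channels, structural proteins and gene regulators were counted too. Potassium channels (Kcn) gave 5 of 92, GABA receptors 3 of 16, collagens 4 of 42, tripartite motif genes 12 of 68, and zinc finger Zfp genes 42 of 410, of which 37 had repeated windows. Zfp966 was the farthest Zfp member at 676666 bp and Zfp433 the highest in CpG ratio. Crystallins of the lens gave 8 of 16 and myosin heavy chains 7 of 14. Hox genes, which pattern the body axis, gave 0 of 39. Ribosomal protein genes gave 10 of 99, of which 8 had a single exon, and mitochondrial ribosomal proteins 1 of 78, namely Mrps18b. Mrps18b had a strong summit in the caller's unfiltered output, described below.

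Clustered protocadherins, neuronal adhesion proteins with alternative first exons, gave 28 of 59. Their median CpG ratio of 0.38 was higher than in the other families with 20 or more members. Pcdha8 was the farthest at 27891 bp and also had the highest ratio, 0.70. In this locus the interval nearest to a member had a fold between 1.70 and 2.23. The strongest interval of the family's other genes was at Pcdhgc3, 52.6-fold, a gene of the cluster used broadly.

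Placeholder symbols had higher shares than the background, 307 of 598 for Gm genes and 74 of 278 for Rik genes. Gm6882 was the farthest Gm member at 1298240 bp and Gm16867 the highest in CpG ratio. Among Rik genes 2210418O10Rik was the farthest at 420906 bp and 4833420G17Rik the highest in CpG ratio. 4833420G17Rik also had a strong unfiltered summit, described below. Of the Gm members 75.6% had repeated windows and of the Rik members 32.4%.

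Lists of tissue genes were counted too. The peak calls that chose the members also set these counts, so they are a description and no check on the tissue. None of 10 proximal tubule, 7 thick ascending limb and distal tubule, 8 collecting duct, 5 podocyte, 6 endothelium or 6 stroma markers was a member, while 3 of 10 immune markers were. Among these were the T-cell receptor components Cd3g, at 5173 bp from an interval, and Cd3e, at 2577 bp. Over all kidney lists 5.77% of 52 genes were members, and over the lists of other tissues 40.9% of 235, beside 20.5% over all genes. Not every list of another tissue exceeded that share. Smell transduction stood at 20%, neurons at 15.8%, taste transduction at 10% and lineage master regulators at 0%.

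Genes of digestion and milk were members most often. Of 15 pancreas enzymes 11 were members, among them Cpa1, a carboxypeptidase, at 20094 bp, and Pnlip, the pancreatic lipase, at 6456 bp. Of 7 milk genes 5 were members, including the caseins Csn1s1, Csn2 and Csn3 at 7611, 8206 and 6419 bp. Of 14 stomach and gut genes 9 were members, with Gkn1, a gastric mucosal protein, at 14863 bp and Muc2, the main intestinal mucin, at 3066 bp. Liver plasma proteins gave 6 of 17, among them Ahsg, the fetuin gene, at 6388 bp.

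Of the gamete lists, spermatid genes gave 10 of 17 and oocyte and early embryo genes 7 of 15. The protamines Prm1 and Prm2, which pack sperm DNA, lay 6877 and 2104 bp from an interval. Pgk2, the glycolytic enzyme of sperm, lay 19409 bp away. Zp2, a protein of the egg coat, lay 4801 bp from an interval of 9.62-fold. Figla, an oocyte transcription factor, lay 1078 bp from its nearest interval.

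Vision and lens genes gave 11 of 20, among them Crx, the photoreceptor transcription factor, at 32166 bp and Rbp3, a retinoid carrier of the retina, at 5470 bp. Muscle genes gave 9 of 20: the myosin heavy chains Myh1, Myh2, Myh4 and Myh8 stood 85062, 57768, 109421 and 70027 bp from an interval. Acta1, skeletal actin, lay 2241 bp away, and Myog, which drives muscle differentiation, lay 1030 bp away. Epidermal barrier genes gave 6 of 14, with Flg, the filaggrin gene, at 9666 bp.

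Red cell genes gave 5 of 10, all of them globins. The adult genes Hbb-bs and Hbb-bt lay 6345 and 6802 bp from an interval and had 40.8% and 41.3% repeated words, and Hba-a1 lay 2701 bp away with 69.4%. Hormone genes of the pituitary and islets gave 7 of 20, among them Prl at 11048 bp, Tshb, the thyrotropin subunit, at 22162 bp and Gcg, the glucagon gene, at 1304 bp. Neuron genes gave 3 of 19, with Gabra6 at 98704 bp, Th, the dopamine-pathway enzyme, at 1364 bp and Neurod6 at 4153 bp.

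Genes that carry sensory signals onward from the receptors were listed too. Of 10 smell transduction genes 2 were members, Stoml3 at 1129 bp and Rtp2 at 20919 bp, and of 10 taste transduction genes Gnat3 alone, at 5844 bp. Vomeronasal genes gave 4 of 8, all of them H2-M10 genes, class Ib histocompatibility genes expressed with vomeronasal receptors. None of the 19 genes in the list of lineage master regulators was a member, but that list did not hold every such gene: the muscle regulators Myod1 and Myog, both members, stood in the muscle list.

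The 117 CpG-rich members were the smallest class and the most varied. Of these, 69 had repeated windows and 48 single-copy windows. The 10 with the highest CpG ratio were Meioc (0.84), H2bc23 and H2bc24 (0.83 each), Mrps18b (0.81), H2ac23, Jph3 and H2ac24 (0.80 each), Bhlhe23 (0.76), Cacna1i (0.75) and Ermardl1 (0.74). The 4 histone genes among them form 2 inverted pairs on chromosome 13 with 100% repeated words and their nearest intervals between 1556 and 1979 bp away. Jph3, a junctophilin of neurons, and Cacna1i, a T-type calcium channel, are neuronal genes, and Bhlhe23 is a transcription factor of retina and brain.

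The single-copy CpG-rich members were sorted by known role after their values were seen, so the groups are a description. The 9685 single-copy CpG-rich genes as a whole were not sorted in this way. No background share therefore stands beside the group counts, and they do not show that a role is more common among members. Germ-line genes formed the largest group, with 19 of 48 and CpG ratios from 0.44 to 0.84. They included Sycp1, of the synaptonemal complex, at 19118 bp from an interval, Hormad1, a meiotic chromosome axis protein, at 28356 bp, Mael, of the piRNA pathway, at 6591 bp, Dmrt1, a testis transcription factor, at 40052 bp, and Ddx4 at 7287 bp. Testis counterparts of widely expressed genes were among them, such as Pdha2, of pyruvate dehydrogenase, at 3348 bp and Papolb, a poly(A) polymerase, at 14996 bp. The median distance of the group was 9502 bp, and 8 of the 19 had an interval elsewhere in the gene.

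Regulators of the embryo gave 10 and neuronal or hormone genes another 10. The first group held T (brachyury, the mesoderm regulator) at 12385 bp, Wnt3a, a signalling ligand, at 2845 bp, Foxb1 at 1288 bp, Lhx5 at 2894 bp, Fgf3 at 8237 bp, Neurog3, which specifies islet precursors, at 18665 bp, and Myod1. The median distance in this group was 2870 bp. The second group held Syt10, a synaptotagmin, at 111273 bp, Slc18a3, the vesicular acetylcholine transporter, at 2825 bp, Sst, the somatostatin gene, at 3828 bp, and Trh, thyrotropin-releasing hormone, at 2499 bp. The remaining 9 had no common role and included Klhl40, a muscle gene, at 6873 bp, and Mrps18b with its unfiltered summit.

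Of the 69 CpG-rich members with repeated windows, 46 had over 90% repeated words and 24 were Gm genes. The 7 members named Cwc22rt carry the name of the splicing factor Cwc22, each with 100% repeated words. Protocadherin alpha genes gave 8, with 6.63% to 17.3% repeated words and an interval elsewhere in each gene. Slc25a37, the mitochondrial iron importer mitoferrin, had a window of 100% repeated words, its nearest interval at 30701 bp and 7 intervals within the gene. H2-Q6 and H2-Q7, histocompatibility genes, had 97.4% and 99.5% repeated words.

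Within the printed 300-base stretch, GGGCGG occurred in 24 of the 48 single-copy CpG-rich members and GCATGCGC in 6 (12.5%). Counting error alone puts the share of GCATGCGC between 5.86% and 24.7%. Among all genes with an interval the shares were 52.7% and 4.08%, but only 64.8% of those genes were CpG-rich. Both motifs contain CpG, and they were not counted in CpG-rich genes with an interval alone. The shares therefore do not show whether either motif sets these members apart from other CpG-rich genes. TATAAA occurred in 2 of the 48.

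Members at the edge of the rule show how fine the limit is. The 5 just outside 1 kb were Pglyrp2 at 1002 bp, Dnase2b at 1004 bp, Spmap2 at 1010 bp, Naip2 at 1012 bp and Ovgp1 at 1013 bp. The 5 genes just inside were Adrm1b at 1000 bp, BC035044, Mrap and Opn5 at 998 bp each, and Adora3 at 997 bp. In all 346 members lay within 2 kb of an interval.

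Distance to the nearest interval spread over 3 orders of magnitude, with a median of 14213.5 bp, a lower quartile of 4957 bp, an upper quartile of 37374 bp and a 90th percentile of 93533 bp. Of the members 74.8% had no interval within 5 kb, 59.1% none within 10 kb, 19.2% (814) none within 50 kb and 9.36% none within 100 kb. Single-copy members lay closer, with a median of 10114 bp and 10.7% beyond 50 kb, than members with repeated windows, with a median of 21470.5 bp and 29.9%. The part of repeated sequence in these distances was not tested.

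**Figure D4:**
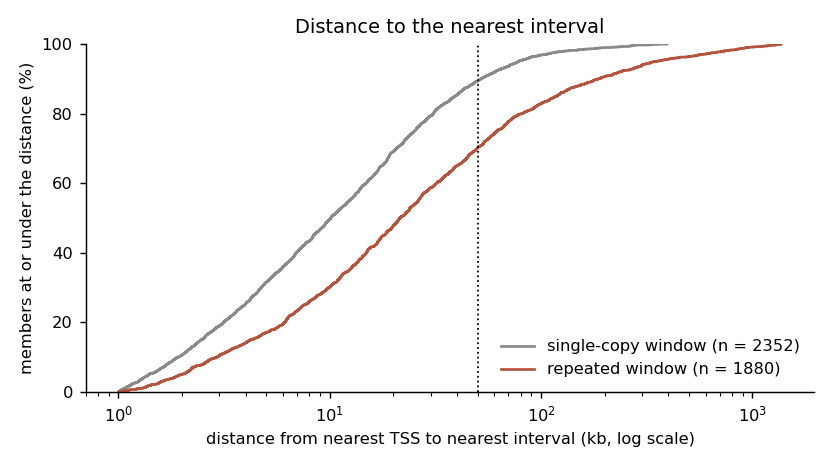
Cumulative percent of members (y axis) by the distance in kb from their nearest TSS to the nearest interval (x axis, log scale), in gray for 2352 members with single-copy windows and in red for 1880 with repeated windows, with a dotted line at 50 kb. The red curve lies to the right of the gray one throughout, and 10.7% of single-copy and 29.9% of repeated members lie beyond the line.

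The 10 farthest members all lay in a single cluster of chromosome 7: Vmn1r129 at 1369694 bp, Vmn1r128 at 1359088 bp, Vmn1r127 at 1329576 bp, Vmn1r126 at 1311182 bp, Gm6882 at 1298240 bp, Vmn1r125 at 1281894 bp, Vmn1r124 at 1270332 bp, Vmn1r130 at 1219205 bp, Gm5157 at 1200138 bp and Vmn1r131 at 1184895 bp. In each, between 69.9% and 100% of words were repeated. All 17 members beyond 1 Mb had repeated windows. Among single-copy members the farthest was Or5b122 at 395861 bp on chromosome 19, followed by Zfp735 at 361085 bp on chromosome 11 and Or5b124 at 348223 bp on chromosome 19. The other 7 of the 10 farthest single-copy members were olfactory receptors too.

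The intervals nearest to members lay beyond 1 kb of their TSSs by the rule. Their median fold enrichment was 2.291, with 62.6% under 3 and 6.43% at least 10, beside a median of 2.42, 62.3% under 3 and 8.24% at least 10 over all 240427 autosomal intervals beyond 1 kb of every TSS of these genes. The 2 sets are not fully alike. A member's nearest interval can lie at a TSS of another gene, and an interval nearest to several members is counted for each of them. The nearest intervals of the genes with an interval, which are promoter intervals by the rule, had a median of 24.3. In 905 members (21.4%) some interval lay within the gene body away from every TSS, and in 3327 none did. Among single-copy CpG-rich members 21 of 48 had such an interval, and among olfactory receptor members 50 of 1113.

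Members stood side by side along the chromosomes. Ordered by canonical TSS, the members fell into 1448 runs of consecutive member genes, of which 936 were single genes and 177 held 5 or more. These 177 runs held 57.5% of the members, and 35 runs of 20 or more held 1114 genes (26.3%). Both neighbours were members for 53.7% of members and for 1.82% of genes with an interval, and neither was for 22.1% and 84.2%. Of the 48 single-copy CpG-rich members 34 stood alone, as did 23 of 1113 olfactory receptor members.

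The longest run held 104 genes on chromosome 7 from Nlrp9b to Vmn1r183, of which 86 were Vmn1r genes, and spanned 4.01 Mb with a median of 97.4% repeated words. The second held 101 genes on chromosome 2 from Or5m9 to Or9m2, of which 99 were olfactory receptors, with a median of 2.04% repeated words. The third, from Or14j4 to Esp1 on chromosome 17, held 47 genes, the fourth, from Rplp1rt to Or9i1b on chromosome 19, held 46, and the fifth, from Or4c11b to Or4a79 on chromosome 2, held 44. Median repeated words were 1.53%, 1.53% and 0.26% in these 3.

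Between the ends of the longest run lay 15 intervals, 3.74 per Mb, against 112 per Mb over all autosomes. The run on chromosome 19 held a single interval in 1.07 Mb, or 0.937 per Mb, and few of its words were repeated. The runs on chromosome 2 that began at Or5m9, on chromosome 17 at Or14j4 and on chromosome 2 at Or4c11b held 17.0, 15.8 and 13.9 intervals per Mb. Over the 35 runs of 20 or more the value was 13.7 per Mb. Since runs are defined by promoters without intervals, part of this scarcity follows from the rule.

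**Figure D5:**
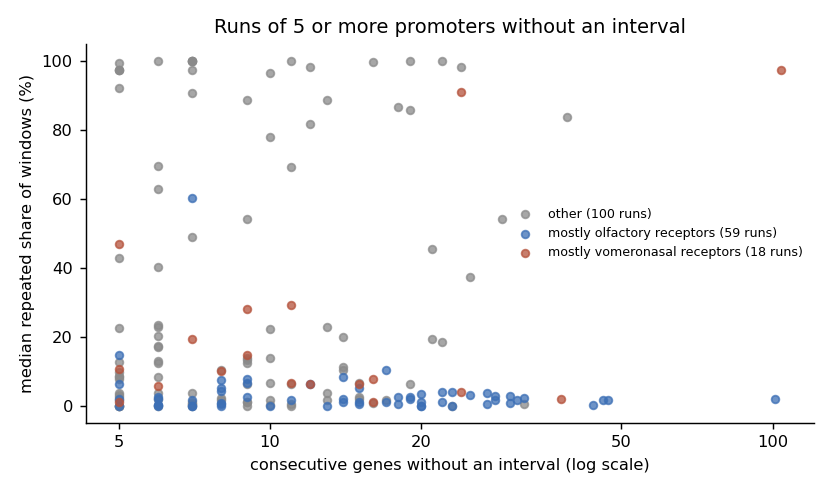
Median share of repeated 50-base words in the promoter windows of a run (y axis, percent) against its number of consecutive genes without an interval (x axis, log scale), for 177 runs of 5 or more, coloured by the family that makes up most of the run. The longest run, of 104 genes, stands at 97.4%, whereas the olfactory receptor runs lie near the bottom, among them that of 101 genes at 2.04%.

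Of the 177 runs 59 were made up mostly of olfactory receptors and 18 mostly of vomeronasal receptors. In 85 of them the median share of repeated words was at most 5%, and in 34 it exceeded 50%. Long runs were found at both ends of this range.

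Chromosomes differed in their share of members. Chromosome 7 had the highest, 32.4% of 2033 genes, followed by chromosome 14 with 29.4% and chromosome 2 with 26.0%. Chromosome 12 had the lowest, 11.7%, followed by chromosome 15 with 13.0% and chromosome 8 with 14.1%. Olfactory receptors were 225 of the 658 members on chromosome 7 and 301 of the 473 on chromosome 2, but 39 of the 245 on chromosome 14.

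For 2 members a strong summit stood in the caller's unfiltered output, while the deposited filtered list held no interval within 1 kb. The unfiltered summit list held a summit of −log10 q 1613 at 108 bp from a TSS of Mrps18b, a subunit of the mitochondrial ribosome, and one of 872 at 2 bp from a TSS of 4833420G17Rik. The other 4230 members had no unfiltered summit within 1 kb of a TSS.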

How the data were processed

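ATAC-seq was done on nuclei of mouse kidney cortex from 3 WT and 3 Acly cKO libraries. Per the study's methods, the authors used fastp for trimming, aligned to mm39 (GRCm39) with Bowtie2 2.3.4.3, removed duplicates, kept uniquely mapped reads, called peaks with MACS3 3.0.0 at a q of 0.05 and removed blacklisted regions and nonstandard chromosomes with bedtools 2.29.1. Versions are those in the submitters' processing notes. The deposited peak list gives, for each summit, the authors' fold enrichment over background, a linear ratio, and −log10 q as the authors' caller wrote it, and the deposited unfiltered summits hold the same −log10 q. No column belongs to a single library.

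Rows with the same chromosome, start and end were merged into distinct intervals, each represented by the summit of largest −log10 q. Genes and TSSs came from GENCODE M39 and sequence from the GRCm39 assembly, and distances ran from the nearest TSS of a gene to the nearest interval edge. CpG classes, the CpG ratio and repeated words were computed in canonical TSS ± 1 kb windows, with 500-base stretches moved by 5 bases and 50-base words every 10 bases. Runs are consecutive member genes ordered by canonical TSS. Symbols shared by several genes were kept apart by gene identifier.

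H2bc24, named by the rule for printed promoters, was left unprinted as a copy. Members, families and lists were chosen with earlier results of these data known. Named genes are family members farthest from an interval or highest in CpG ratio (printed for families with 20 or more members), the 10 highest in CpG ratio, the 10 farthest, the ends of the 5 longest runs, the 5 on each side of the 1-kb limit and members of the tissue lists, of which examples are printed and 1 is not reported here. Genes named for other reasons (Or51e2, the interleukins, single solute carriers, the members of the CpG-rich groups, and genes with an interval named beside their family) were chosen after their values were seen. The oocyte list holds Bpifb6, kept as written although its place there is uncertain. The 7 known-answer checks on simulated data were all recovered. With a single pooled call there was nothing to test between samples, so no test was run. Python 3.11.15, numpy 2.4.6, pandas 2.3.3, scipy 1.17.1 and numba 0.67.0 were used.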

Additional observations from a re-analysis of the deposited data

Results flagged for a closer look

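For 2 members a signal appeared in the unfiltered summits, which the comparisons above do not use. Mrps18b had 12 unfiltered summits within 1 kb of its TSSs, the strongest with a −log10 q of 1613, above 99.9% of all unfiltered summits. They lay in a stretch of 20514 bp on chromosome 17 that held 53 unfiltered summits and no interval of the filtered list. 4833420G17Rik, on chromosome 13, had 3 such summits, the strongest with a −log10 q of 872, above 99.3% of all, in a stretch of 7406 bp that held 8 summits and no filtered interval. Which filtering step removed them was not tested.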

How the results depend on the processing

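The number of promoters without an interval stayed within 1.5 times 4232 under 8 alternatives, from 3886 with a limit of 2 kb to 6078 with intervals of at least 5-fold, and was 2352 among genes with single-copy windows, which by construction leaves out the repeated ones. Of 64 recomputed values 36 stayed within the 95% interval of the main value (counts within 1.5 times), and 28 moved outside it; the cause was not tested. Shares are of members and the median is that of the CpG ratio. With a 2-kb limit the median was 0.137 and 20.9% had no interval within 50 kb. With the canonical TSS alone the median was 0.145, 17.9% had none within 50 kb, 24.7% were olfactory receptors and 42.3% had repeated windows. With TSSs of protein-coding transcripts 55.5% lay in runs of 5 or more and 24.9% were olfactory receptors. With intervals of q under 0.01, 23.998% had none within 50 kb. With q under 1e-05 the median was 0.147, with 3.66% CpG-rich, 34.2% with none within 50 kb, 23.9% olfactory receptors and 41.3% repeated. With intervals of at least 5-fold it was 0.165, with 7.54% CpG-rich, 40.3% with none within 50 kb, 52.1% in runs of 5 or more, 19.3% olfactory receptors and 36.4% repeated. In single-copy windows it was 0.151, with 2.04% CpG-rich, 10.7% with none within 50 kb, 43.5% in runs of 5 or more and 31.7% olfactory receptors. In the 300 bases around the TSS it was 0.131, with 0.803% CpG-rich. The share of repeated windows has no value among single-copy windows. No paired analysis was possible because the deposited list pools all libraries, and for the same reason no replicate could be left out and depth per library is unknown.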
